A study of Mus musculus with 4 samples.

Results

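The genes described here are 10 transcription factors of the lymphoid lineages, *Ebf1*, *Pax5*, *Tcf3*, *Ikzf1*, *Ikzf3*, *Foxo1*, *Bach2*, *Spi1*, *Gata3* and *Bcl6*, out of 22380 protein-coding genes of the GENCODE M1 annotation of the mouse mm9 genome. They were chosen by name, and a p53 peak was assigned to a gene when its centre lay within 200 kb of the transcription start site (TSS) of any annotated transcript of that gene. By this rule 26 of the 7384 listed peaks were assigned to them, each to 1 gene. p53 binding had been mapped by ChIP-Seq, in which DNA fragments bound by a protein are recovered with an antibody and sequenced, to locate p53 sites in hematopoietic progenitors and their change after DNA damage. For p53, Ba/F3 cells were profiled untreated and 3 h after irradiation with 3 Gy and HPC7 cells were profiled untreated, and the active chromatin mark H3K27ac was profiled in the irradiated Ba/F3 cells. Ba/F3 is an interleukin-3-dependent mouse line of B cell progenitors and HPC7 a mouse line of multipotent progenitors grown with stem cell factor. Both lines are wild type for p53, and in all 4 libraries the cells stably expressed triple-FLAG-tagged MYSM1, a histone deubiquitinase, under puromycin. Each condition had 1 library, so no value here has a replicate error.

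The peaks came as 1 list of positions and peak numbers, without read counts, heights or p-values, and without the library in which a peak was called. The list alone therefore does not assign a peak to Ba/F3 or HPC7 cells. The paper's own peak table, which is described as one of Ba/F3 peaks with marks for those also found in HPC7 cells, served here only to check the numbering, and its intensities and marks were not used. The depth of the libraries is unknown, and the lineage of the cells could not be checked against marker genes. Binding below the threshold of the peak caller would not appear in the list. Each peak carries a number, called its rank here, which orders all peaks by their change of p53 binding after irradiation, from the largest increase at 1 to the largest decrease at 7384. The rank is an order and not a size, and the 3 classes into which the paper divides this order were not used. The paper places most peaks in its class of increased binding, so a rank past the middle need not mean a decrease.

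B cell development is directed by a small network of transcription factors. E2A, encoded by *Tcf3*, acts with FOXO1 to switch on *Ebf1*, and EBF1 and PAX5 then establish and hold the B cell identity. IKAROS and PU.1 act before them in multipotent progenitors, AIOLOS, BACH2 and BCL6 act later in the B cell lineage, and GATA3 directs T cell development. p53 is a tetramer that binds a site of 20 bp made of a motif in tandem, often far from a promoter, so the nearest gene of a peak is a position and not a shown target.

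Of the 26 peaks, 4 (15.4%) had one of the 10 genes as the nearest protein-coding gene, beside 14.7% of the 46107 pairs that all protein-coding genes formed with a peak within 200 kb. The sequences of the 4 are shown because they are the peaks that distance alone ties to a lymphoid factor. They lay in an intron of *Pax5*, in an intron of *Gata3*, downstream of *Gata3* and in an intron of *Bcl6*. Each line gives the 100 bases of the listed peak from the plus strand of mm9, and capitals mark a p53 site with at most 3 mismatches to the p53 consensus of 20 positions. A site was counted only if the core C and G of each copy of the motif were intact.
*Pax5* intron, chr4:44585403-44585502: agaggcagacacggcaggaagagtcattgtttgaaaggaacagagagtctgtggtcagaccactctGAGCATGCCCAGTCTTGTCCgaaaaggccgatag
*Gata3* intron, chr2:9794387-9794486: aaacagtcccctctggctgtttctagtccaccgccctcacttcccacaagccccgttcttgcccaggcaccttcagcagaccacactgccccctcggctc
*Gata3* downstream, chr2:9623036-9623135: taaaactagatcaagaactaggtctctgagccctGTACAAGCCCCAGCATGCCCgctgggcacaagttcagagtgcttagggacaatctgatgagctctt
*Bcl6* intron, chr16:23982677-23982776: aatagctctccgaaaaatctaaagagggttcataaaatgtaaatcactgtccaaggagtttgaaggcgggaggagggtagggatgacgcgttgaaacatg
The *Pax5* peak and the downstream *Gata3* peak held a p53 site. The intronic peaks of *Gata3* and *Bcl6* held none within 100 bp of the centre.

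Of the 10 genes, 9 had a p53 peak within 200 kb of a TSS, beside 75.1% of all protein-coding genes. Within 100 kb the count was 5 of 10, beside 57.8% of all protein-coding genes. Within 50 kb it was 3 of 10, for *Tcf3*, *Gata3* and *Bcl6*, beside 40.4% of all protein-coding genes, and within 10 kb it was 2 of 10, for *Gata3* and *Bcl6*, beside 15.6%. Read against these shares, none of the 4 counts is a result about the lymphoid factors. The median distance from a TSS to the nearest peak was 95502 bp for the 10 genes and 74258 bp for all protein-coding genes. The median number of peaks within 200 kb was 1.5 for the 10 genes, with quartiles of 1.00 and 2.75, and 2.00 for all protein-coding genes, with quartiles of 1.00 and 3.00. As the nearest protein-coding gene of at least 1 peak at any distance, 3 of 10 were found, namely *Pax5*, *Gata3* and *Bcl6*, beside 24.0% of all protein-coding genes.

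**Figure D1:**
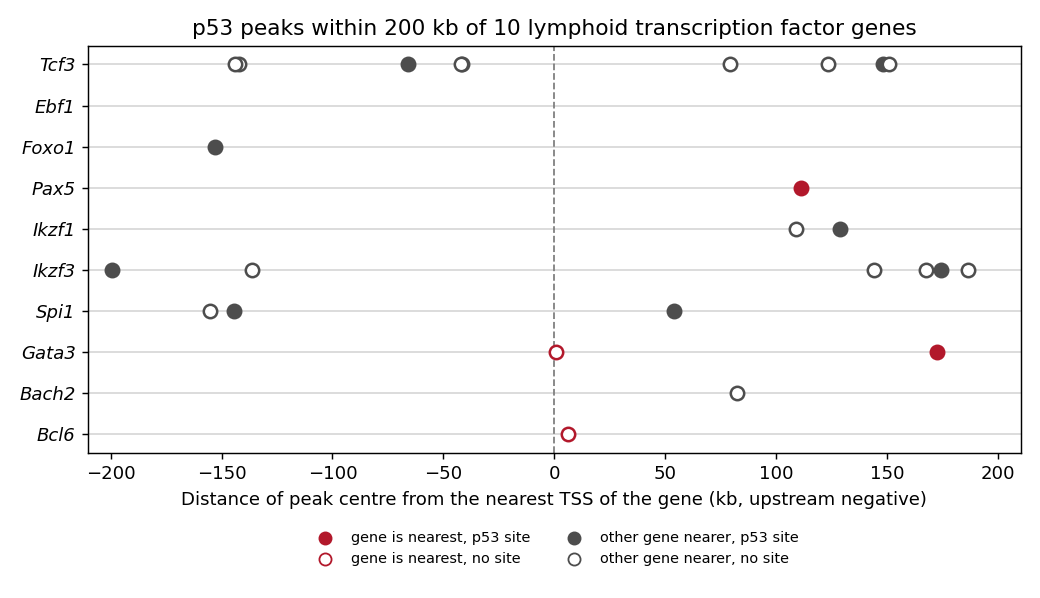
Each point is 1 of the 26 p53 peaks within 200 kb of a lymphoid transcription factor gene, placed by the distance in kb of its centre from the nearest TSS of that gene (x axis, upstream negative), with 1 line per gene. The 4 red points are peaks whose nearest protein-coding gene is the lymphoid factor, filled points hold a p53 site, and the line of *Ebf1* is empty.

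The factors that open the B cell program differed widely in the number of peaks around them. *Tcf3*, which encodes the E-box-binding protein E2A, had 9 peaks within 200 kb of its 11 annotated TSSs, a number exceeded by 0.206% of protein-coding genes. None of the 9 had *Tcf3* as its nearest gene, and the number of protein-coding genes with a closer TSS ran from 1 to 21. The *Tcf3* gene (chr10:79872259-79896392, minus strand) had 22 other protein-coding genes with a TSS in the same window, and 4.94% of protein-coding genes had more. The nearest peaks to *Tcf3* were a pair 41789 and 42006 bp upstream, at ranks 7191 and 5343, and both lay nearer to *Onecut3*, a homeobox gene, at 19470 and 19253 bp. Another upstream peak at 66093 bp, rank 3491, lay inside *Onecut3*, 4834 bp from its TSS. The upstream side ended with a pair nearest to *Klf16*, which were 141924 bp from *Tcf3* with rank 38 and 143769 bp with rank 7338. *Klf16* encodes a zinc finger factor of the Krüppel-like family. Downstream of *Tcf3*, a peak at 78914 bp with rank 1784 was nearest to *Adamtsl5*, and a peak at 123041 bp with rank 7045 lay 7 bp from a TSS of *Rps15*, a ribosomal protein gene. The last pair of peaks, at 147867 bp with rank 945 and at 150538 bp with rank 7256, was nearest to *Dazap1*, which encodes an RNA-binding protein, at 2496 and 35 bp. The peaks around *Tcf3* thus covered nearly the whole range of ranks, and 3 of them lay within 1 kb of the TSS of a protein-coding neighbor. The pair nearest to *Tcf3* lay 916 and 699 bp from a U6 small RNA gene.

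*Ebf1*, the factor that commits progenitors to the B cell lineage, was the only one of the 10 genes without a peak within 200 kb. The gene (chr11:44430819-44821593, plus strand) spans 391 kb, so that its 5 TSSs with 200 kb on each side cover 695 kb. At the mean density of peaks over the genome such a window would hold 1.93 peaks. Its nearest peak, at rank 4895, was 514202 bp away near *Clint1*, and 91.8% of protein-coding genes had a nearer one. That peak held a p53 site with 1 mismatch and belonged to a sequence shared with 901 other peaks of the list. Having no peak within 200 kb was common, since it held for 24.9% of protein-coding genes. *Ebf1* lay in a gene-poor region, with 2 other protein-coding genes in its window, and 84.1% of protein-coding genes had more.

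*Foxo1*, a forkhead factor that acts with E2A on *Ebf1* and on the recombinase genes, had 1 peak within 200 kb. The peak lay 152719 bp upstream of the single annotated TSS of the gene (chr3:52072259-52154031, plus strand), at rank 3545. It was nearer to *Maml3*, which encodes a Notch coactivator, at 10727 bp, and held a p53 site with 2 mismatches. A single peak within 200 kb was found for 22.3% of protein-coding genes, and 68.3% of them had a nearer peak than *Foxo1*.

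*Pax5*, the factor that maintains B cell identity, was the only one of the early B cell factors that was the nearest gene of a peak. The peak (chr4:44585403-44585502, rank 3070) lay in intron 7 of the longest coding transcript, and 14 of the 16 annotated transcripts of *Pax5* spanned it. It was 111235 bp downstream of the nearest TSS, that of a noncoding transcript, and 137828 bp from the nearest TSS of a coding transcript. Its p53 site, shown above, lay 26 bp from the peak centre and had 1 mismatch to the consensus, at position 13 counted from the 5′ end of the site. No other peak of the list resembled its sequence, and the window held no second peak. A TSS of the annotated gene AL772319.1, which is not protein-coding, was closer, at 34988 bp. *Pax5* also lay in a gene-poor window, with 1 other protein-coding gene in it.

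The zinc finger genes of the Ikaros family had peaks only at a distance from their promoters. *Ikzf1* encodes IKAROS, which is needed for lymphoid development from multipotent progenitors, and had 2 peaks within 200 kb of its 8 TSSs, both downstream of the gene (chr11:11585006-11672929, plus strand). The peak at 108806 bp, rank 6830, lay 63 bp from a TSS of *Fignl1*, an ATPase gene of DNA repair, and held no p53 site. The peak at 128633 bp, rank 961, lay inside *Ddc*, which encodes aromatic L-amino acid decarboxylase, and held a site with 1 mismatch. The 2 peaks near *Ikzf1* thus combined a promoter peak late in the order with a distal site early in it.

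*Ikzf3* encodes AIOLOS, which acts later in B cells, and had 6 peaks within 200 kb of its TSSs, a number exceeded by 3.04% of protein-coding genes. With only the most upstream TSS of each gene it had 2, a number exceeded by 32.9%. All 6 lay more than 100 kb away, and none had *Ikzf3* (chr11:98326216-98407345, minus strand) as its nearest gene. Upstream, a peak at 136426 bp with rank 7305 was 97 bp from a TSS of *Psmd3*, a proteasome subunit gene, and a peak at 199243 bp with rank 4018 was inside *Thra*, the thyroid hormone receptor alpha gene. Downstream, 3 peaks at 144111, 167230 and 174224 bp with ranks 1888, 2713 and 2033 were nearest to *Neurod2*, a neuronal basic helix-loop-helix gene. The fourth downstream peak, at 186261 bp with rank 424, was nearest to *Cdk12*, a kinase gene. All of the 4 downstream peaks were counted through the TSS of a noncoding transcript, and from the coding TSS of *Ikzf3* they lay 212508 to 254658 bp away. The window held 19 other protein-coding genes, and 8.46% of protein-coding genes had more.

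*Spi1* encodes PU.1, an ETS factor of myeloid and early lymphoid progenitors, and is named Sfpi1 in the annotation (chr2:90922547-90955913, plus strand). It had 3 peaks within 200 kb, none of which had *Spi1* as its nearest gene. A peak 53663 bp downstream, rank 2000, lay inside *Madd*, which encodes a MAP kinase activating protein, and held a site with 2 mismatches centered on the peak. Upstream, a peak at 144596 bp with rank 994 was 2588 bp from *Celf1*, an RNA-binding protein gene, and held a site with 3 mismatches. A second upstream peak at 155238 bp with rank 3839 was nearest to *Ptpmt1*, a mitochondrial phosphatase gene, and held no site. The first and second of these were the only peaks near the lymphoid factors made of repeated sequence, with 12 and 10 similar peaks in the list. Without repeated sequence a single peak near *Spi1* remained.

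*Gata3*, the zinc finger factor of T cell development, was the only one of the 10 genes that was the nearest gene of more than 1 peak. With the TSSs of all transcripts it also had the nearest peak of the 10. The intronic peak (chr2:9794387-9794486, rank 2454) lay 863 bp downstream of a TSS of a noncoding transcript and 5791 bp from the nearest coding TSS, in intron 3 of the longest coding transcript, and 3 of the 7 annotated transcripts spanned it. A nearer peak was found for 5.86% of protein-coding genes when the TSSs of all transcripts were used. With only the most upstream TSS of each gene, the intronic peak lay 17225 bp away, and the peak of *Bcl6* at 6212 bp was nearer to its gene. The second peak (chr2:9623036-9623135, rank 874) lay 172214 bp downstream of the gene's nearest TSS and 177142 bp from the nearest coding TSS, with no protein-coding gene closer. Its p53 site was 5 bp from the peak centre and had mismatches at positions 2 and 11. A further peak had *Gata3* as its nearest protein-coding gene but lay beyond the limit, at 750785 bp (chr2:9044465-9044564, rank 4269), and it held a site with 2 mismatches. *Gata3* (chr2:9778705-9811661, minus strand) had 5 other protein-coding genes in its window. Its intronic peak, the nearest of all by the TSSs of all transcripts, was without a p53 site, and both peaks with a site lay outside the gene.

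The remaining factors act as repressors in later B cells. *Bcl6*, the regulator of germinal center B cells, had 1 peak (chr16:23982677-23982776, rank 3980), in intron 1 and 6212 bp downstream of the TSS of the gene (chr16:23965138-23988938, minus strand). It was spanned by 1 of the 2 annotated transcripts. No p53 site was found in it, and 11.8% of protein-coding genes had a nearer peak. *Bach2*, which represses plasma cell genes, had 1 peak 82197 bp downstream of a noncoding TSS and 155581 bp from the nearest coding TSS (gene at chr4:32325779-32673083, plus strand). That peak, at rank 7189, lay 9 bp from a TSS of *Mdn1*, an ATPase gene of ribosome assembly, and held no site. *Bcl6* was thus the nearest gene of its peak, and *Bach2* was not, with 3 protein-coding genes closer.

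**Figure D2:**
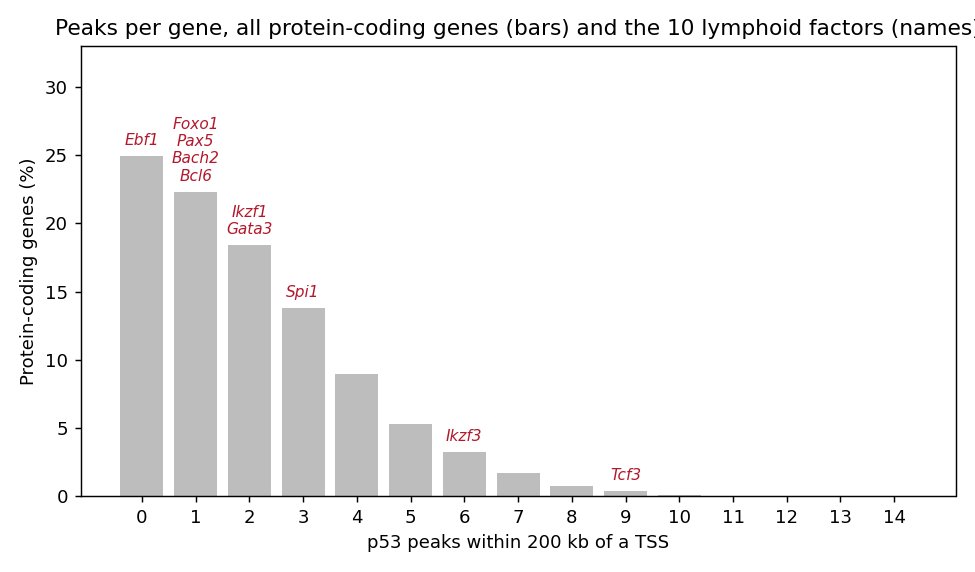
Bars give the percentage of the 22380 protein-coding genes (y axis) with each number of p53 peaks within 200 kb of a TSS (x axis), and names stand over the bar of their own number of peaks. *Ebf1* stands at 0, 4 of the 10 genes at 1, and *Ikzf3* and *Tcf3* at 6 and 9 peaks in the sparse upper range, where *Ikzf3* stands through noncoding TSSs and has 2 peaks with 1 TSS for each gene.

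The number of peaks near a gene moved with how many other genes shared its window. Among the 7005 protein-coding genes with the fewest neighbors, 0 to 4 other genes in the window, the median was 1.00 peak and 63.7% had at least 1. Among the 5568 with the most, 13 to 52 other genes, the median was 3.00 and 81.8% had at least 1. *Tcf3*, *Ikzf3* and *Spi1*, with 22, 19 and 16 neighbors, were among the latter, and all 3 had peaks. Another 6 of the 10 genes were among the former, of which 5 of 6 had a peak and *Ebf1* had none. None of the peaks of these 3 genes had the lymphoid factor as its nearest gene, beside 14.7% of the pairs of all protein-coding genes. The part of neighboring genes in the counts of *Tcf3*, *Ikzf3* and *Spi1* was not tested.

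The other 22 of the 26 peaks had another protein-coding gene nearest, as the limit of 200 kb largely fixes. Of the 26, 16 lay within 10 kb of the TSS of such a gene, beside 55.3% of the pairs of all protein-coding genes, and 6 within 1 kb, beside 24.5%. These shares are near those of all genes and are not a result about the lymphoid factors. The 6 were at *Rps15*, *Klf16*, *Dazap1*, *Fignl1*, *Psmd3* and *Mdn1*, none of which is in the lists of lymphoid genes used here. In relation to the lymphoid factors themselves, 3 peaks were intronic, 13 downstream and 10 upstream. All 3 intronic peaks and 1 downstream peak had the factor as the nearest gene, and none of the 10 upstream peaks did. Several lay close to the limit of the rule. The farthest peak inside it was that of *Ikzf3* at 199243 bp, and the nearest outside were peaks at 203081 bp from *Ikzf3* (rank 1366), 231070 and 244582 bp from *Tcf3* (ranks 1900 and 2136), 235251 bp from *Spi1* (rank 7200) and 247864 bp from *Bcl6* (rank 1761).

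**Figure D3:**
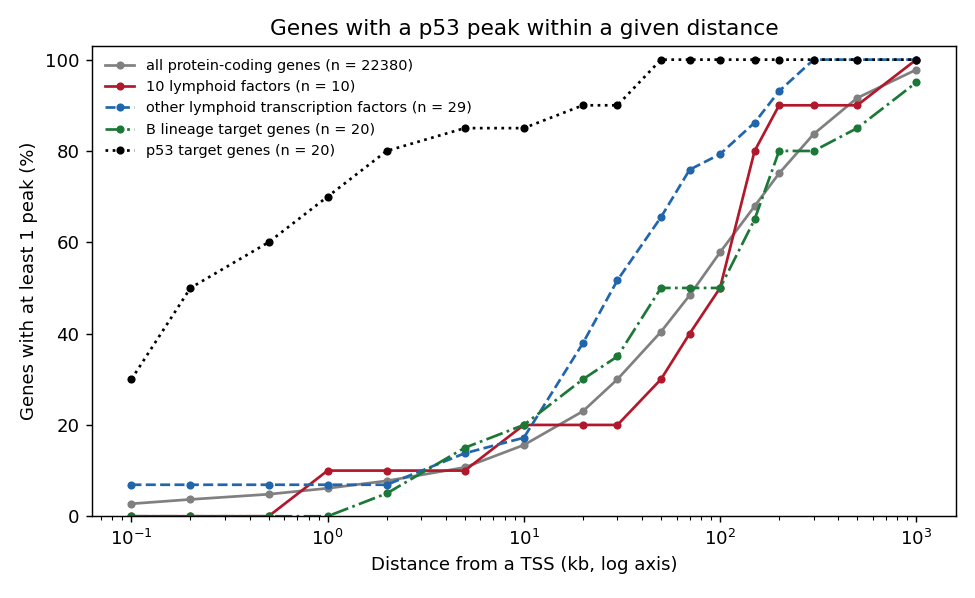
Lines give the percentage of genes (y axis) with at least 1 p53 peak within a given distance of a TSS in kb (x axis, log scale) for all protein-coding genes, the 10 lymphoid factors and 3 other gene lists. The 10 lymphoid factors reach 90.0% at 200 kb against 75.1% of all protein-coding genes and lie below all protein-coding genes at 50 kb, at 30.0% against 40.4%, while the p53 target genes reach 85.0% by 10 kb.

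Of the 26 peaks near the lymphoid factors, 10 held a p53 site, or 38.5% (95% Wilson interval 22.4 to 57.5%), beside 54.5% of all peaks. In windows of the same length 10 kb lower in coordinate, whatever the strand of the gene, 0 of 26 held a site, beside 1.03% for all peaks. By gene, 7 of 10 had at least 1 peak with a site within 200 kb, all but *Ebf1*, *Bach2* and *Bcl6*, beside 56.6% of protein-coding genes. When a spacer of 0 to 13 bases was allowed within the site, 15 of 26 peaks held one, or 57.7% (38.9 to 74.5%), beside 72.7% of all peaks. Under both definitions the share near the lymphoid factors was below that of all peaks, but its interval contained the share of all peaks. Without repeated sequence and without a spacer, 8 of 24 peaks held a site, or 33.3% (18.0 to 53.3%), beside 45.3% of all peaks. These intervals cover counting error over peaks only.

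The 10 sites are shown together, all in capitals because the whole run is the site, to let the mismatches be compared. This set was chosen after its values were seen, and the name is that of the lymphoid factor within 200 kb with the rank of the peak.
*Pax5*, rank 3070: GAGCATGCCCAGTCTTGTCC
*Ikzf1*, rank 961: AGACATGCTTGTACATGTCC
*Gata3*, rank 874: GTACAAGCCCCAGCATGCCC
*Tcf3*, rank 3491: ACACATGCCCACACATGCCC
*Foxo1*, rank 3545: AGGCTCGCCCAGGCGTGTCT
*Spi1*, rank 2000: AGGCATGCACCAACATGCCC
*Ikzf3*, rank 4018: TAACATGCCTGGCCATGCTC
*Tcf3*, rank 945: GCACATGGCCAGGCATGTTG
*Ikzf3*, rank 2033: GGGCATGTTGGCTCATGTTC
*Spi1*, rank 994: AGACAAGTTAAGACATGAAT
None matched the consensus at all 20 positions, 2 had 1 mismatch, 5 had 2 and 3 had 3. Among all peaks, 6.15% held a site without mismatch, 17.8% one with 1, 16.8% one with 2 and 13.7% one with 3. The 2 sites nearest to the consensus were those in *Pax5* and, near *Ikzf1*, in *Ddc*, and each lay 26 bp from its peak centre.

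By rank, the 26 peaks ran from 38 to 7338 with a median of 3280, and 15 of them lay in the first 3692 ranks, on the side of the larger increases. The 4 peaks with a lymphoid factor as the nearest gene lay at ranks 874 to 3980. Ranks 6647 to 7384, at the end of the order where the largest decreases stand, held 7 of the 26 peaks, or 26.9%, beside 9.99% of all peaks. Of these 7, 4 were near *Tcf3*, and without that gene 3 of 17 peaks (17.6%) were at these ranks. All 7 lay within 1 kb of some annotated TSS, 6 of them of a protein-coding gene, and none held a p53 site. Of the 19 peaks at earlier ranks, 2 lay within 1 kb of a TSS and 10 held a site. The GC content of the 200 bp windows had a median of 66.5% at the late ranks and of 49.5% at the earlier ones. The whole list showed the same composition, with 78.6% of the peaks at ranks 6647 to 7384 within 1 kb of a TSS, 8.13% with a site and a median GC content of 68.5%. In the 9 bins of like size before them, 10.0 to 14.2% of the peaks lay within 1 kb of a TSS and 46.0 to 70.3% held a site. The late peaks near *Tcf3*, *Ikzf1* and *Bach2* thus shared the composition of the end of the list. The late peak near *Ikzf3* shared its closeness to a TSS and its lack of a site, but had a GC content of 51.5%. The promoters that the late peaks lay at were those of other genes.

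**Figure D4:**
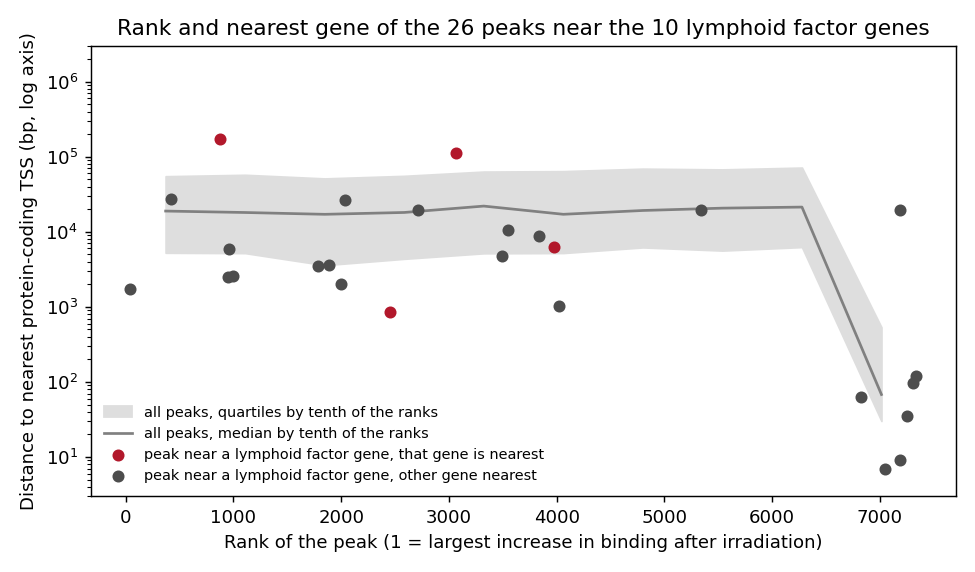
Each point is 1 of the 26 peaks, by its rank (x axis, 1 for the largest increase of binding after irradiation) and the distance in bp from its centre to the nearest TSS of a protein-coding gene (y axis, log scale), in red where that gene is the lymphoid factor. The line and band give the median and quartiles of all 7384 peaks in 10 bins of rank, which drop in the last bin, where 6 of the 7 points lie within 1 kb of a TSS.

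Short motifs that factors of this network are known to bind were counted in the same 200 bp windows, exact and on both strands. The E-box CAGCTG was in 3 of 26 peaks (11.5%, beside 9.71% of all peaks), the EBF motif CCCNNGGG in 3 (11.5%, beside 6.04%) and the Ikaros motif TGGGAA in 5 (19.2%, beside 13.6%). The RUNX motif TGTGGT was in 5 (19.2%, beside 12.9%) and the GATA motif AGATAA in 2 (7.69%, beside 14.5%). For each of these the Wilson interval of the 26 peaks contained the share of all peaks. The ETS motif GAGGAAGT and the AP-1 and BACH motif TGAGTCA were in 0 of 26, with an upper limit of 12.9%, beside 2.00% and 4.93% of all peaks. Of the 4 peaks nearest to a lymphoid factor, the intronic *Gata3* peak held the Ikaros and RUNX letters, the *Pax5* peak the RUNX letters, the *Bcl6* peak the Ikaros letters, and the downstream *Gata3* peak none of the 7 motifs. A match of such short letters is a description of the window, and the windows 10 kb away held them at shares between 1.31% for the ETS motif and 17.6% for the Ikaros motif.

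A further list held 30 other lymphoid transcription factors, 29 of which were matched in the annotation. Within 200 kb 27 of 29 (93.1%) had a peak, within 50 kb 19 (65.5%) and within 10 kb 5 (17.2%), beside the 75.1%, 40.4% and 15.6% of all protein-coding genes. The median distance to the nearest peak in this list was 27133 bp, beside 74258 bp for all protein-coding genes. *Lef1* and *Ets1* had no peak within 200 kb, and their nearest peaks lay 225142 and 285091 bp away. The 5 with a peak within 10 kb were *Tcf12*, *Tcf4*, *Pou2f2*, *Zbtb7b* and *Foxp1*. *Tcf12*, which encodes the E protein HEB, a partner of E2A, had 7 peaks within 200 kb, and its nearest lay 6058 bp from a TSS in intron 8, with rank 6664 and a p53 site with 1 mismatch. *Tcf4*, the gene of another E protein, had a peak 15 bp from a TSS, with rank 7257 and no site. *Zbtb7b*, a regulator of CD4 T cells, had one 13 bp from a TSS, with rank 4954 and no site. *Pou2f2*, which encodes the B cell octamer factor, and *Foxp1*, a forkhead factor of early B cells, each had an intronic peak 4268 bp from a TSS, at ranks 2307 and 1948, with sites of 3 and 2 mismatches. All 3 E protein genes thus had a peak within 200 kb, and only that of *Tcf3* was not the nearest gene of its nearest peak.

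Among 20 genes that the B cell program switches on, 16 (80.0%) had a peak within 200 kb, 10 (50.0%) within 50 kb and 4 (20.0%) within 10 kb, near the 75.1%, 40.4% and 15.6% of all protein-coding genes. The 4 were *Igll1* and *Vpreb1*, which encode the surrogate light chain, *Lyn*, a kinase of the B cell receptor, and *Dntt*, the terminal transferase of V(D)J recombination. *Igll1* and *Vpreb1* shared 1 peak, 2323 and 2947 bp from their TSSs, with rank 2870 and a site with 1 mismatch, in a sequence that resembled 26 other peaks. The peak of *Lyn* lay 1355 bp from a TSS in intron 9 with rank 1589 and a site with 1 mismatch, and that of *Dntt* lay 5231 bp away with rank 2534 and no site. No peak lay within 200 kb of *Rag1*, *Rag2*, *Il7r* or *Btk*, whose nearest peaks were 653942, 678697, 459572 and 1092611 bp away. For comparison, 20 well-known p53 target genes all had a peak within 50 kb and 17 (85.0%) within 10 kb, with a median nearest distance of 227 bp. *Cdkn1a*, the cell cycle inhibitor p21, had a peak 49 bp from a TSS with a site of 1 mismatch, and *Mdm2*, the ubiquitin ligase of p53, had one at 7 bp. Within the same 10 kb, 2 of the 10 lymphoid factors had a peak, near the 15.6% of all protein-coding genes.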

How the data were processed

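The authors mapped the reads to mm9 and called p53 peaks against input DNA of the same cells (Bowtie 1.0.0 and MACS 1.4.1 per the submitters' processing notes). They deposited 1 list with the start, end and number of each peak, all 100 bp wide. How peaks of several libraries were merged is not given in the sources used here. The list holds no comparison columns, and 0 columns of single samples were left unused. All 1955 entries of the paper's peak table held here had the number and position of the list.

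Distances ran from the peak centre to TSSs of GENCODE M1. *Spi1* was matched by synonym, the other 9 genes by name. The p53 site was searched within 100 bp of the centre (20 positions, at most 3 mismatches) in NCBIM37, the assembly of mm9. The core C and G of each copy of the motif had to be intact under every definition of the site. Peaks were called repeated when their 200 bp windows resembled at least 10 others (BLAST+ 2.17.0, 80% identity over 100 bp). The search was tested on simulated data, with mismatches planted only outside the core C and G. The 10 genes and the other lists were chosen with earlier results of these data known, so no test was made and no p-value is given. Named were the 10 genes, all their peaks and the nearest gene of each, genes of the lymphoid lists with a peak within 10 kb, and *Cdkn1a* and *Mdm2*. Genes without any peak within 200 kb and the 10 sites shown together were added after their values were seen. Alternatives were other distance limits, other TSSs, merged peaks, no repeated sequence, the first 3000 ranks and other definitions of the site. Figures were drawn with matplotlib 3.10.9, and sequences were read with samtools 1.23.1 and pysam 0.24.0 in Python 3.11.15, with SciPy 1.17.1 and NumPy 2.4.6.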

Additional observations from a re-analysis of the deposited data

How the results depend on the processing

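The counts depended on the distance limit. Within 100, 50 and 10 kb, 5, 3 and 2 of the 10 genes had a peak in place of 9, beside 57.8%, 40.4% and 15.6% of all protein-coding genes in place of 75.1%, and 8, 4 and 2 peaks were assigned in place of 26. In the first 3000 ranks alone, 5 genes had a peak, beside 50.0% of all protein-coding genes, and 12 peaks were assigned. With the nearest gene taken among all annotated genes rather than protein-coding ones, 2 peaks in the whole list had a lymphoid factor nearest in place of 5, for *Gata3* and *Bcl6*, since noncoding genes lay closer to the others. The share of peaks with a p53 site, 38.5% beside 54.5% of all peaks, was 26.9% beside 40.8% with up to 2 mismatches, 57.7% beside 61.5% with up to 4, and 57.7% beside 72.7% with a spacer of 0 to 13 bases. Within 50 kb 0 of 4 peaks held a site. Coding TSSs alone gave 9 genes (beside 74.7% of all protein-coding genes) and 22 peaks, 1 TSS for each gene 8 genes (beside 74.0%) and 21 peaks, leaving out repeated sequence 9 genes (beside 68.3%) and 24 peaks, and merging peaks within 1 kb 25 peaks. With 1 TSS for each gene, *Bach2* had no peak and *Ikzf3* had 2 in place of 6. The median rank was 3280 over all 26 peaks and 4662 within 50 kb. No paired analysis was possible because each condition had 1 library and the peaks came as 1 list. With no read counts, the list cannot tell weak binding from none.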

Other observations

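At 2 genes near *Tcf3*, neighboring peaks stood far apart in the order of binding change. The 2 peaks at *Klf16* had centres 1845 bp apart, 1725 and 120 bp from its TSS, and ranks of 38 and 7338, close to both ends of the list. The 2 peaks at *Dazap1* had centres 2671 bp apart, 2496 and 35 bp from its TSS, and ranks of 945 and 7256. In both pairs the peak at the TSS had the later rank. Of all peaks at ranks 6647 to 7384, 78.6% lay within 1 kb of a TSS, beside 10.0 to 14.2% in the earlier bins. No count of close pairs over the whole list is given here. In the other close pair near *Tcf3*, with centres 217 bp apart and ranks of 7191 and 5343, the peak nearer to a TSS had the earlier rank, at 699 against 916 bp from a U6 gene. The peaks at 120 and 35 bp had GC contents of 81.0% and 79.0% and no p53 site without a spacer, and those at 1725 and 2496 bp had GC contents of 57.0% and 53.5%. The earlier peak of *Dazap1* held a p53 site with 3 mismatches, and that of *Klf16* held none. With a spacer allowed, both *Klf16* peaks held a site, the earlier one with 2 mismatches and a spacer of 1 base and the one at the TSS with 3 mismatches and a spacer of 12 bases. Windows away from the peaks were searched only without a spacer, so how often such spaced matches arise elsewhere is not known here. The part of GC content in the ranks was not tested.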
